A study of Mus musculus with 4 samples.

Results

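The genes followed here are 10 markers of hepatic stellate cells, Lrat, Reln, Des, Pdgfra, Pdgfrb, Hgf, Ecm1, Colec11, Rgs5 and Acta2, chosen by name among the 24346 gene symbols listed for each mouse liver library. Stellate cells lie between the hepatocytes and the sinusoidal endothelium. In the healthy liver they are quiescent, store vitamin A as retinyl esters in lipid droplets and secrete factors that act on neighbouring cells. In injured or inflamed liver they can become activated, lose the stored vitamin A, take up a contractile, myofibroblast-like state and deposit collagen. From this textbook knowledge Lrat, Reln, Hgf, Ecm1, Colec11 and Rgs5 were read as genes of the quiescent cell, Pdgfrb and Acta2 as genes that rise on activation, and Des and Pdgfra as present in both states.

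All livers came from male wild type C57BL/6 mice, 8 weeks old when feeding began, which received for 3 weeks a NASH diet, that is, a steatohepatitis-inducing diet of fat, cholesterol, sucrose and bile salt. In the control group the diet held nothing further, and in the 7KC group it also contained 7-ketocholesterol (7KC), an oxidized form of cholesterol. Each group had 2 RNA sequencing libraries (n = 2). The labels do not say that each library came from a separate mouse, so the p-values measure the spread between these samples, which may be technical.

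Expression was given as FPKM, the fragments assigned to a gene per kilobase of its exon model, scaled for library size. This allows levels to be compared between genes. Median-ratio factors, which level the typical gene between libraries, were 1.0006 to 1.00267 for the deposited values. The deposited scale was thus already close to a median-ratio scale, and median-ratio scaling as an alternative changed almost nothing. The depth of the libraries, recovered from the steps of their low values, was about 16900000 and 13700000 mapped reads in the control group against 13500000 and 13700000 in the 7KC group. The 10 most abundant genes took 22.3% to 23% of all FPKM in the controls, but 17.9% to 19.8% with 7KC, so the remaining genes shared a larger part of the 7KC libraries. The hepatocyte marker Alb, the serum albumin gene, was at 41547 and 25203 FPKM in the controls against 26969 and 18988 FPKM with 7KC. Here and throughout, paired values are those of replicates 1 and 2 of a group, in that order.

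All 10 stellate cell genes had a mean of at least 0.5 FPKM and entered the test with 12299 genes in all. Ecm1 had the highest level, between 45.7 and 74.1 FPKM over the 4 libraries, followed by Colec11 at 25.9 to 33.4 FPKM and Rgs5 at 8.17 to 12.3 FPKM. These ranges did not overlap each other, nor the range of the next gene, Lrat, at 4.35 to 7.09 FPKM. Reln, Acta2, Hgf, Pdgfrb and Des came next in the order of mean level, each with a range that overlapped that of the gene before it, so this middle order did not exceed the spread between libraries. Pdgfra was lowest, at 1.23 to 1.81 FPKM, below the range of Des. By an estimate from the longest transcript, the smallest number of reads behind a value was 82, for Des in 7KC replicate 2, where a coefficient of variation of 11% is due to counting. The other 9 genes rested on at least 88 reads in every library, and Ecm1 on at least 1048.

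**Figure D1:**
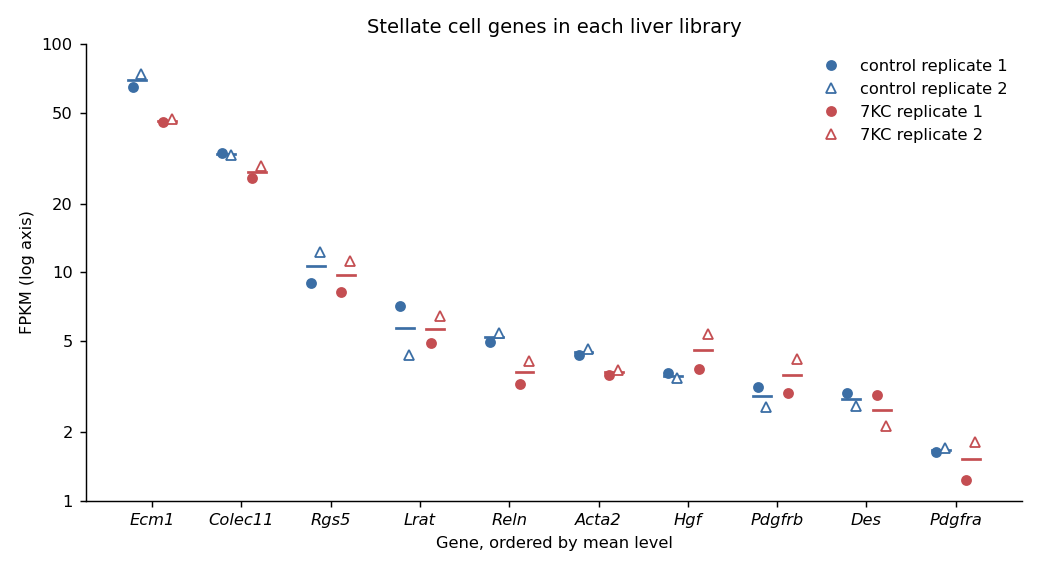
FPKM of the 10 stellate cell genes in each library, on a log axis, ordered by mean level; filled circles are replicate 1, open triangles replicate 2, blue the control group, red the 7KC group, and the bars are group means of 2 libraries. Both 7KC libraries lie below both control libraries for Ecm1, Colec11, Reln and Acta2, against 27.4% of all tested genes. They lie above them for Hgf, against 25.1%, while the libraries of the other 5 genes overlap. After rescaling to the same sum Ecm1 alone stays below, against 7.83%, and Hgf and Pdgfrb lie above, against 46.6%.

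The comparison of the 7KC with the control group asked whether stellate cell genes of the quiescent or the activated kind differed when 7KC was added to the diet. With limma, none of the 10 genes passed an adjusted p under 0.05, against 0.48% of all tested genes called higher and 0.0244% called lower, 0.504% in all. At an unadjusted p under 0.05, 2 of the 10 genes were lower, Ecm1 and Reln, against 5.81% of all tested genes, and 0 were higher, against 12%. Both 7KC libraries lay below both control libraries in 4 genes, Reln, Ecm1, Colec11 and Acta2, against 27.4% of all tested genes, and above them in 1 gene, Hgf, against 25.1%. The count of genes below was 5 or 6 without any 1 library, being 6 without control replicate 2 or 7KC replicate 2. The count of genes above was 3 when control replicate 1 or 7KC replicate 1 was left out. With 1 library left out, 37.8% to 41.9% of all tested genes lay below and 33.5% to 37.6% above, so these counts are to be read against those larger shares. Of the 10 genes 7 had a negative and 3 a positive log2 change, against 53.9% and 46.1% of all tested genes. The median log2 change of the 10 genes, on the scale of log2(FPKM + 0.5), was -0.13, beside a median of -0.03 over all tested genes. For a single gene, 2 libraries against 2 give 3 splits, and the smallest 2-sided p of an exact permutation test is 0.33.

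These directions were set partly by the scale. When the libraries were rescaled to the same sum, the median of all tested genes moved from -0.03 to 0.16 and that of the stellate cell genes from -0.13 to 0.04. Relative to all tested genes the stellate cell median was thus -0.11 on the deposited scale and -0.12 after rescaling. After rescaling, Ecm1 was the single gene with both 7KC libraries below both controls, and Hgf and Pdgfrb lay above, against 7.83% of all tested genes below and 46.6% above on that scale. In whole liver RNA, fewer cells of a type and less RNA of a gene per cell cannot be told apart.

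**Figure D2:**
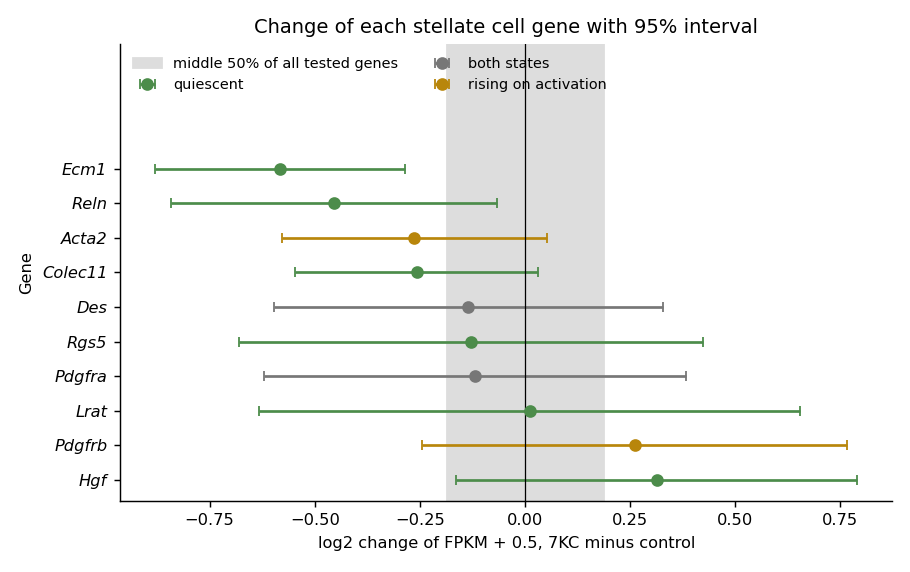
Log2 change of FPKM + 0.5 (7KC minus control) of each gene with its 95% interval from limma, coloured by the state the gene marks; the grey band holds the middle 50% of all tested genes, from -0.19 to 0.19. The intervals of Ecm1 and Reln lie below 0 and those of the other 8 genes include 0, none of the 10 genes passed adjustment over all genes, and Rgs5, Des and Pdgfra turn positive after rescaling to the same sum.

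Storage of vitamin A is represented by Lrat (chromosome 3, 82892579 to 82903973, minus strand, GRCm38), the enzyme that esterifies retinol. Lrat was at 7.09 and 4.35 FPKM in control replicates 1 and 2 and at 4.91 and 6.41 FPKM in 7KC replicates 1 and 2. The 7KC libraries lay between the control libraries, and the group means of 5.72 ± 1.94 and 5.66 ± 1.06 FPKM (SD, n = 2 each) were close. The log2 change amounted to 0.01 (SE 0.25, limma adjusted p 0.985), with a 95% interval from -0.63 to 0.65, so a change of moderate size in either direction was not detectable. The sign rested on single libraries, at -0.31 when control replicate 2 was left out and -0.17 when 7KC replicate 2 was, and was also negative, at -0.06, under quantile normalization.

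Other genes of vitamin A handling were then compared. Of 21 genes listed from general knowledge, 15 were tested and none passed in either direction with limma. At an unadjusted p under 0.05, 1 was higher and 1 lower, against 12% and 5.81% of all tested genes. Cyp26b1, which breaks down retinoic acid, was at 6.85 and 5.32 FPKM in the controls against 2.03 and 3.11 FPKM with 7KC, a log2 change of -1.11 (limma adjusted p 0.0966). Both 7KC libraries were below both controls. Lpl, which encodes lipoprotein lipase, was at 22.6 and 21.6 FPKM in the controls against 26.7 and 41.6 FPKM with 7KC, a log2 change of 0.58 (limma adjusted p 0.264). Over the 15 genes, both 7KC libraries lay below both controls in 7 and above them in 1, against 27.4% and 25.1% of all tested genes. These counts became 3 and 3 when the libraries were rescaled to the same sum, against 7.83% and 46.6%. The count below was 11 without control replicate 2, against 40.5% of all tested genes. The count above was 5 without control replicate 1, against 37.6%.

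Among the secreted products, Ecm1 and Reln had the lowest p-values of the 10 genes. Ecm1 (chromosome 3, 95734147 to 95739569, minus strand) encodes extracellular matrix protein 1, a glycoprotein known to keep latent TGF-beta inactive in the liver. It was at 65.1 and 74.1 FPKM in the controls against 45.7 and 46.8 FPKM with 7KC. The groups were well apart, and the 7KC libraries differed from each other by little. The 7KC mean was 66.4% of the control mean, a log2 change of -0.58 (SE 0.12, 95% interval -0.88 to -0.28, limma adjusted p 0.0966). Over the 14 other settings the log2 change stayed between -0.67 and -0.38, with adjusted p-values between 0.0951 and 0.418.

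Reln (chromosome 5, 21884454 to 22344702, minus strand) encodes reelin, a large secreted glycoprotein that in the liver marks stellate cells, and also lymphatic endothelium. It was at 4.97 and 5.42 FPKM in the controls against 3.25 and 4.09 FPKM with 7KC. All 7KC values were lower, with a wider spread than in the controls. The log2 change was -0.46 (SE 0.15, 95% interval -0.84 to -0.07, limma adjusted p 0.228). It was -0.31 without 7KC replicate 1, -0.60 without 7KC replicate 2 and -0.27 after rescaling to the same sum, where the libraries overlapped. The reelin receptor genes Vldlr and Lrp8 and the adaptor gene Dab1 were below the filter, with at most 0.379 FPKM in any library. Fyn, a kinase that acts on the adaptor and is also abundant in T cells, was at 4.76 and 4.01 FPKM in the controls against 6.00 and 8.01 FPKM with 7KC (log2 change 0.61, limma adjusted p 0.188).

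Colec11 (chromosome 12, 28594173 to 28623377, minus strand) encodes collectin-11, a sugar-binding protein that starts the lectin pathway of complement. It was at 33.4 and 32.5 FPKM in the controls against 25.9 and 29.2 FPKM with 7KC. The 7KC libraries were lower, by less than for Ecm1, with a log2 change of -0.26 (SE 0.11, 95% interval -0.55 to 0.03, limma adjusted p 0.321). After rescaling to the same sum the log2 change was -0.05. The partners of Colec11 were on the same side on the deposited scale. Colec10, which forms mixed complexes with Colec11, was at 10.4 and 10.7 FPKM against 8.03 and 7.33 FPKM (log2 change -0.44, limma adjusted p 0.149). The protease gene Masp2 had a log2 change of -0.34 (limma adjusted p 0.276) and Masp1 of -0.32 (limma adjusted p 0.331). Of 6 genes in this lectin group 0 passed and 2 were lower at an unadjusted p under 0.05, against 5.81% of all tested genes. Both 7KC libraries lay below both controls in 4 of the 6, against 27.4% of all tested genes, and in 2 after rescaling to the same sum, against 7.83%.

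Hgf (chromosome 5, 16553495 to 16620152, plus strand) encodes hepatocyte growth factor, a mitogen that stellate cells and endothelial cells supply to hepatocytes. It was at 3.62 and 3.45 FPKM in the controls against 3.76 and 5.39 FPKM with 7KC. Both 7KC values were the higher ones, but 7KC replicate 1 was close to the controls and the distance came from 7KC replicate 2. The log2 change was 0.31 (SE 0.19, 95% interval -0.16 to 0.79, limma adjusted p 0.436), and 0.08 without 7KC replicate 2. The gene of its receptor, Met, was at 17.2 and 18.7 FPKM in the controls against 16.9 and 16.3 FPKM with 7KC (log2 change -0.10, limma adjusted p 0.656).

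Hgf is made as an inactive precursor that proteases cut. The gene of the activating protease Hgfac was at 121 and 94.6 FPKM in the controls against 92.5 and 69.2 FPKM with 7KC (log2 change -0.42, limma adjusted p 0.346). Plau, the urokinase gene, which is also expressed by inflammatory cells, was at 1.58 and 1.25 FPKM in the controls against 3.23 and 3.65 FPKM with 7KC (log2 change 1.05, limma adjusted p 0.0621). It passed in 2 of the other settings, with adjusted p-values of 0.0436 after rescaling to the same sum and 0.0458 without control replicate 1, and the highest value over all settings was 0.367. Of the 7 tested genes of this group, 0 passed, 1 was higher and 0 were lower at an unadjusted p under 0.05, against 12% and 5.81% of all tested genes.

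Platelet-derived growth factor is the classical mitogen of stellate cells, and its receptors are Pdgfra and Pdgfrb. Pdgfra (chromosome 5, 75152292 to 75198215, plus strand), present in both states, measured 1.63 and 1.71 FPKM in the controls against 1.23 and 1.81 FPKM with 7KC. The 7KC libraries enclosed the controls, and the log2 change was -0.12 (SE 0.20, 95% interval -0.62 to 0.38, limma adjusted p 0.789). It was 0.09 without 7KC replicate 1 and 0.04 after rescaling to the same sum. Pdgfrb (chromosome 18, 61045150 to 61085061, plus strand), the receptor that becomes abundant on activated stellate cells and also marks pericytes, was at 3.15 and 2.57 FPKM in the controls against 2.95 and 4.16 FPKM with 7KC. The groups overlapped. The log2 change was 0.26 (SE 0.20, 95% interval -0.24 to 0.77, limma adjusted p 0.535), and 0.04 without 7KC replicate 2.

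Within a library the ratio of Pdgfrb to Pdgfra does not depend on how libraries are scaled. It was 1.93 and 1.5 in the controls against 2.39 and 2.30 with 7KC, which did not overlap. This ratio was chosen after the values were seen and was not tested. Of the ligand genes, Pdgfb, expressed by endothelial cells and macrophages, was at 1.15 and 1.40 FPKM in the controls against 1.75 and 2.35 FPKM with 7KC, with no overlap (log2 change 0.52, limma adjusted p 0.259). Pdgfa, Pdgfc and Pdgfd had log2 changes of 0.02, 0.17 and 0.27 with overlapping libraries, and none of the 4 ligand genes passed with limma.

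Rgs5 (chromosome 1, 169655501 to 169695813, plus strand) encodes a regulator that shuts off G protein signals and is found in stellate cells and in pericytes. It was at 8.97 and 12.3 FPKM in the controls against 8.17 and 11.2 FPKM with 7KC. The groups overlapped almost fully, and in both groups replicate 2 had the higher value. The log2 change was -0.13 (SE 0.22, 95% interval -0.68 to 0.42, limma adjusted p 0.792). Its sign was positive, at 0.09, when control replicate 2 or 7KC replicate 1 was left out, and positive, at 0.07, after rescaling to the same sum. Of 9 relatives in the same family of regulators, 4 were tested and 0 passed with limma. Rgs16, a gene of hepatocytes with a daily rhythm, was at 150 and 201 FPKM in the controls against 45.5 and 68.7 FPKM with 7KC (log2 change -1.63, limma adjusted p 0.0606, and 0.0344 without control replicate 1). Rgs2 had a log2 change of 0.89 (limma adjusted p 0.175).

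Of the cytoskeletal genes, Des (chromosome 1, 75360329 to 75368579, plus strand) encodes desmin, the muscle-type intermediate filament protein used to stain rodent stellate cells. It was at 2.97 and 2.59 FPKM in the controls against 2.90 and 2.12 FPKM with 7KC. The groups overlapped, with a log2 change of -0.14 (SE 0.18, 95% interval -0.60 to 0.33, limma adjusted p 0.735). It was 0.05 without 7KC replicate 2 and 0.04 after rescaling to the same sum.

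Acta2 (chromosome 19, 34241090 to 34255590, minus strand) encodes alpha smooth muscle actin, the usual sign of an activated stellate cell. It was at 4.35 and 4.63 FPKM in the controls against 3.56 and 3.75 FPKM with 7KC. Replicates were close in both groups, and both 7KC libraries were lower, at 81.5% of the control mean. The log2 change was -0.26 (SE 0.12, 95% interval -0.58 to 0.05, limma adjusted p 0.345), and after rescaling to the same sum it was -0.08. The closest actin paralogs were barely present: Acta1 was listed at 0 in all libraries, Actc1 at 0 in 3 of 4, and Actg2 stayed between 0.523 and 0.848 FPKM. The cytoplasmic actin genes Actb and Actg1, which every cell uses and leukocytes hold in abundance, differed by 0.77 and 0.82 on the log2 scale, respectively, and had limma adjusted p-values of 0.0774 and 0.1, with both 7KC libraries above both controls. Actb passed after rescaling to the same sum, with an adjusted p of 0.0221.

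Contractile genes are known to be driven by serum response factor, which binds CArG boxes. The 250 bases before each RefSeq start were therefore searched for a CArG-like element, CC, then 6 bases of which at least 5 are A or T, then GG, a pattern that reads the same way on both strands. Windows were at hand for 9 of the 10 stellate cell genes. Acta2 held 2 matches, Lrat held 1, and the other 7 held none, while 8.59% of 32851 windows held at least 1 and 0.67% held 2 or more. Myl9, a smooth muscle myosin light chain gene described further on and chosen after its values were seen, also held 2 matches. Tagln, a further contractile gene, had no window. Not all contractile genes were lower with 7KC. Of 6 tested smooth muscle genes, both 7KC libraries lay below both controls in 2, against 27.4% of all tested genes, and overlapped them in 4. Tpm2 had a log2 change of 0.03. The stretches of Acta2 and Myl9 are shown because both 7KC libraries lay below both controls for these contractile genes on the deposited scale. They are from GRCm38.p6, 5′ to 3′ on the strand of the gene, with the CArG-like element in capitals. Both Acta2 stretches lie inside the bounds that GENCODE gives for the gene.
Acta2, chr19:34255438-34255467, minus strand: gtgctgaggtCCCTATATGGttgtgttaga
Acta2, chr19:34255388-34255417, minus strand: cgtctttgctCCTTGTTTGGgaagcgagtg
Myl9, chr2:156775293-156775322, plus strand: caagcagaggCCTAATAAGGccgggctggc
Myl9, chr2:156775355-156775384, plus strand: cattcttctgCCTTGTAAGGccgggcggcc
The search also covered TATAAA on both strands, which was found in Ecm1 alone among the stellate cell genes and in 12.4% of all windows. A match describes the letters and was not tested as a binding site.

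The quiescent and activation genes were next set against each other within each library. The mean log2(FPKM + 0.5) of the 6 quiescent genes minus that of Pdgfrb and Acta2 was 1.56 and 1.64 in the controls against 1.40 and 1.44 with 7KC. The quiescent part was 3.63 and 3.63 in the controls against 3.30 and 3.59 with 7KC. The activation part was 2.07 and 1.99 against 1.91 and 2.15. In 7KC replicate 1 the quiescent part was low, whereas in 7KC replicate 2 it was near the controls and the activation part was high. Both 7KC libraries were lower in the score, and the difference of the group means was -0.18. The SD between replicates was 0.05, but it rests on 2 libraries per group whose parts differed more than their scores. The difference of the group means stayed between -0.22 and -0.14 when single libraries were left out. It was -0.17 after rescaling to the same sum, but -0.10 under quantile normalization. Pdgfrb and Acta2 lay on opposite sides, so the lower values of Ecm1, Reln and Colec11 and the higher value of Pdgfrb added to the difference, while Acta2 and Hgf took away from it. In the 7KC group, 9 of the 10 genes, all except Des, were higher in replicate 2 than in replicate 1, beside 47.7% of all tested genes. In the control group 5 of the 10 were higher in replicate 2, beside 46%.

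Further genes of the quiescent and the activated stellate cell, listed from general knowledge, were described by the same fit. Of 18 further quiescent genes, 16 were tested and 0 passed with limma in either direction, with 3 lower and 0 higher at an unadjusted p under 0.05, against 5.81% and 12% of all tested genes. Both 7KC libraries lay below both controls in 7 and above them in 1, against 27.4% and 25.1% of all tested genes, and the median log2 change was -0.13. After rescaling to the same sum these counts were 4 and 3, against 7.83% and 46.6%, and the median was 0.06. Vipr1, a peptide hormone receptor gene, was at 8.30 and 8.49 FPKM in the controls against 5.90 and 6.01 FPKM with 7KC (log2 change -0.46, SE 0.11, limma adjusted p 0.13). Angptl6, an angiopoietin-like factor gene, was at 11.5 and 11.4 FPKM in the controls against 8.10 and 8.58 FPKM with 7KC (log2 change -0.44, SE 0.11, limma adjusted p 0.139). Replicates of both genes were close and the groups were apart. Gfap, a filament protein gene used as a quiescence marker, was below the filter, with at most 0.172 FPKM. Without 7KC replicate 2 the quiescent genes had 12 of 17 tested below both controls, against 37.8% of all tested genes, and a median of -0.30. The count above was 4 without control replicate 2 or 7KC replicate 1, against 35.8% and 36.8% of all tested genes. It was 3 without 7KC replicate 2, against 33.5%.

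All 22 further activation genes were tested and 0 passed with limma in either direction, with 7 higher and 4 lower at an unadjusted p under 0.05, against 12% and 5.81% of all tested genes. Both 7KC libraries lay above both controls in 8 and below them in 4, against 25.1% and 27.4% of all tested genes, with a median log2 change of 0.44. After rescaling to the same sum these counts were 13 and 3, against 46.6% and 7.83%, with a median of 0.60. The 4 lower genes were Ctgf, Tagln, Myl9 and Fn1, the last 2 named after their values were seen. Vim, the vimentin gene, which leukocytes also express, was at 61.2 and 45.1 FPKM in the controls against 111 and 138 FPKM with 7KC (log2 change 1.23, SE 0.20, limma adjusted p 0.0635). It passed after rescaling to the same sum (adjusted p 0.034) and without control replicate 1 (0.0304). The collagen gene Col1a1, chosen after its values were seen, was at 16 and 8.10 FPKM in the controls against 23.5 and 34.2 FPKM with 7KC (log2 change 1.28, limma adjusted p 0.164, and 0.0314 without control replicate 1).

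Ctgf, a matricellular gene induced by TGF-beta and by mechanical tension, was at 16.5 and 21.2 FPKM in the controls against 8.70 and 9.59 FPKM with 7KC (log2 change -0.99, SE 0.16, limma adjusted p 0.0621, and 0.0287 without control replicate 1). Tagln, the gene of the actin-binding protein transgelin, was at 14.2 and 17.2 FPKM in the controls against 9.55 and 8.80 FPKM with 7KC (log2 change -0.74, SE 0.14, limma adjusted p 0.0857). Myl9 was at 5.73 and 6.37 FPKM in the controls against 4.08 and 3.72 FPKM with 7KC (log2 change -0.57, SE 0.13, limma adjusted p 0.117). Fn1, the gene of the matrix protein fibronectin, which hepatocytes also secrete, was at 263 and 274 FPKM in the controls against 210 and 217 FPKM with 7KC (log2 change -0.33, SE 0.12, limma adjusted p 0.245). On the deposited scale both 7KC libraries were below both controls for these 4 genes, as for Acta2, and the log2 change was negative in every setting tried. After rescaling to the same sum it was -0.80 for Ctgf, -0.54 for Tagln and -0.39 for Myl9, but -0.12 for Fn1 (limma adjusted p 0.598). The median of the 22 genes rested on single libraries: leaving out control replicate 1 gave 0.67 and control replicate 2 gave 0.20, whereas leaving out 7KC replicate 1 gave 0.73 and 7KC replicate 2 gave 0.08. The count of genes above the controls was 15 without control replicate 1 and 18 without 7KC replicate 1, against 37.6% and 36.8% of all tested genes. Without 7KC replicate 2 the count of genes below them was 7, against 37.8% of all tested genes.

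**Figure D3:**
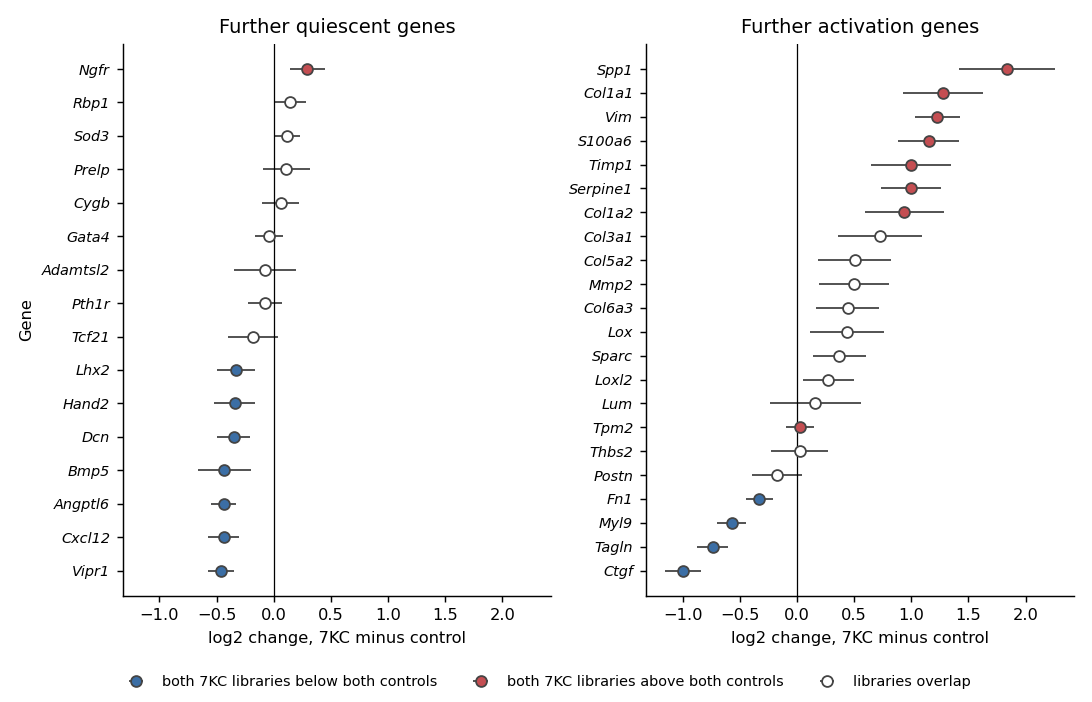
Log2 change of FPKM + 0.5 (7KC minus control) with its SE for the 16 tested further quiescent genes (left) and the 22 further activation genes (right); blue points have both 7KC libraries below both controls, red points above, and open points overlap. On the deposited scale 11 of 16 quiescent genes are negative and 17 of 22 activation genes positive, beside 53.9% and 46.1% of all tested genes. After rescaling to the same sum these counts are 7 of 16 and 18 of 22. On that scale the median of all tested genes is 0.16, so the 2 shares do not apply to them. Ctgf, Tagln and Myl9 have the largest negative values among the activation genes.

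Markers of the other cells of the liver also differed between these libraries, and their part in the stellate cell values was not tested. The summed levels given from here on are on the deposited scale and were not rescaled. On that scale all genes together came to 685028 and 671235 FPKM in the controls against 619828 and 557138 FPKM with 7KC. Of 13 hepatocyte genes, 13 had a negative log2 change on the deposited scale, against 53.9% of all tested genes. After rescaling to the same sum 11 were negative, on a scale where the median of all tested genes was 0.16. On the deposited scale 2 were lower at an unadjusted p under 0.05, against 5.81% of all tested genes, and none passed with limma. Their summed level was 61967 to 74568 FPKM in the controls and 40645 to 53190 FPKM with 7KC. The genes with the smallest p were G6pc, of glucose release, at 348 and 310 FPKM in the controls against 128 and 197 FPKM with 7KC (log2 change -1.05, limma adjusted p 0.109), and Cps1, of the urea cycle (log2 change -0.52, limma adjusted p 0.239). Of the lectin pathway genes, Mbl1, Mbl2 and Masp2 are known from hepatocytes, as is Rbp4, which carries retinol in blood and was at 4093 and 4263 FPKM in the controls against 3266 and 2682 FPKM with 7KC (log2 change -0.50, limma adjusted p 0.298). Ecm1 is also expressed by hepatocytes. The 13 hepatocyte genes had a median log2 change of -0.51, with a range from -1.05 to -0.12, beside -0.58 for Ecm1. Its ratio to each of the 13 hepatocyte genes, taken within a library, was lower in both 7KC libraries than in both controls for 4 genes, Apob, Cyp3a11, Hnf4a and F2, overlapped for the other 9, and was higher for 0. These ratios were chosen after the values were seen and were not tested.

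Cells that share Acta2, Des, Pdgfrb or Rgs5 with stellate cells were examined next. Of 9 smooth muscle genes, 6 were tested, with a summed level of 34.1 to 40.7 FPKM in the controls and 27 to 28.4 FPKM with 7KC, and none passed. The list holds Tagln, which is also among the activation genes, and Mylk, a kinase of the myosin light chain, which had a log2 change of -0.26 (limma adjusted p 0.36). Its defining gene Myh11 was at 0.934 and 1.09 FPKM in the controls against 0.658 and 0.946 FPKM with 7KC. Of 10 portal fibroblast genes, 7 were tested and none passed, with summed levels of 21.4 to 24.5 FPKM and of 22.5 to 30.2 FPKM that overlapped. Its marker Thy1, which T cells also carry in mice, was at 3.69 and 3.16 FPKM in the controls against 7.29 and 8.56 FPKM with 7KC (log2 change 1.10, limma adjusted p 0.053, and 0.0338 after rescaling to the same sum). Dpt, the dermatopontin gene, lay on the other side, at 7.82 and 7.58 FPKM in the controls against 3.41 and 6.47 FPKM with 7KC (log2 change -0.65, limma adjusted p 0.312). None of 5 mesothelial genes passed the filter, although Msln was at 0.793 FPKM in control replicate 2 and 0.681 FPKM in 7KC replicate 2 against at most 0.0609 FPKM in the other libraries.

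Sinusoidal endothelial genes, 10 of 10 tested, had summed levels of 164 to 197 FPKM in the controls and 176 to 246 FPKM with 7KC, and none passed. Stab2 was at 6.76 and 12.3 FPKM against 6.16 and 8.85 FPKM, which overlapped. Both 7KC libraries lay above both controls for Dnase1l3, at 15.4 and 20 FPKM against 29.2 and 29.6 FPKM (log2 change 0.73, limma adjusted p 0.102, and 0.0476 after rescaling to the same sum), and for Fcgr2b (log2 change 0.55, limma adjusted p 0.278). Of 6 cholangiocyte genes, 4 were tested and none passed, with summed levels of 9.36 to 10.7 FPKM and of 8.41 to 10.4 FPKM, and their 2 smallest p-values belonged to genes on opposite sides. Krt19 had both 7KC libraries below both controls (log2 change -0.22, limma adjusted p 0.513) and Sox9 above (log2 change 0.33, limma adjusted p 0.481). Kupffer cell genes, 9 of 9 tested, were summed at 370 to 384 FPKM in the controls and 414 to 620 FPKM with 7KC, and none passed. Timd4, at 7.44 and 7.62 FPKM against 13.3 and 16.3 FPKM, and Marco both had log2 changes of 0.92 (limma adjusted p 0.0606 and 0.0966, and 0.0394 and 0.0475 after rescaling to the same sum), while Clec4f overlapped. Of the 9 Kupffer cell genes, 3 had both 7KC libraries above and 2 below both controls, against 25.1% and 27.4% of all tested genes. None of these defining markers was at 0 in any library.

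The leukocyte lists stood farthest from the stellate cell genes. The 10 monocyte and macrophage genes were summed at 387 to 645 FPKM in the controls and 1160 to 1842 FPKM with 7KC, with a median log2 change of 1.52, and Ccr2 was at 3.47 and 1.53 FPKM against 6.61 and 9.71 FPKM. Their smallest p-values were those of Ly6c2, at 11.1 and 5.39 FPKM against 44.2 and 42.2 FPKM (log2 change 2.40, limma adjusted p 0.0523), and Itgam (log2 change 1.67, limma adjusted p 0.0596). The 10 T and NK cell genes were summed at 14.7 to 22.2 FPKM in the controls and 46.5 to 52.5 FPKM with 7KC, with a median log2 change of 1.18. In all 10 of the latter both 7KC libraries lay above both controls, against 25.1% of all tested genes. Cd3e was at 2.37 and 2.12 FPKM against 6.58 and 5.59 FPKM (limma adjusted p 0.0503), followed by Cd4 (log2 change 1.42, limma adjusted p 0.0512). Ly6c2, Itgam, Cd3e and Cd4 passed after rescaling to the same sum and without control replicate 1. No member of either leukocyte list passed with limma on the deposited scale, with 6 and 10 genes higher at an unadjusted p under 0.05, against 12% of all tested genes. The 10 stellate cell genes together were summed at 135 to 144 FPKM in the controls and 102 to 115 FPKM with 7KC, a sum in which Ecm1 and Colec11 weigh most. This sum was likewise not rescaled, although the total over all genes was lower in the 7KC libraries.

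**Figure D4:**
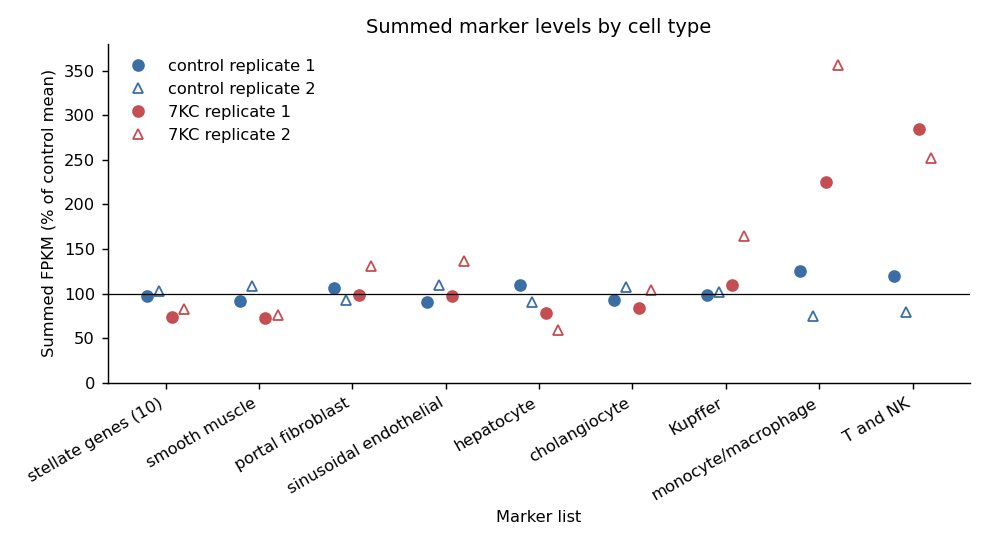
Summed FPKM of the 10 stellate cell genes and of 8 marker lists in each library, as a percentage of the mean of the 2 control libraries of the same list; circles are replicate 1, triangles replicate 2, blue the control and red the 7KC group. On the deposited scale the stellate cell sum is at 73.4% and 82.4% in the 7KC libraries, the hepatocyte sum at 77.9% and 59.5%, and the monocyte and macrophage sum at 225% and 357%. The sums were not rescaled, and the total FPKM over all genes was lower in the 7KC libraries.

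The plot of single settings shows how far the stellate cell values depended on 1 library or on the scale. Ecm1, Reln, Acta2 and Colec11 were negative, and Hgf and Pdgfrb positive, in every setting in which they were tested. Lrat, Rgs5, Des and Pdgfra changed sign in 3, 3, 2 and 2 settings, respectively. No stellate cell gene passed with limma in any of the 14 other settings.

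**Figure D5:**
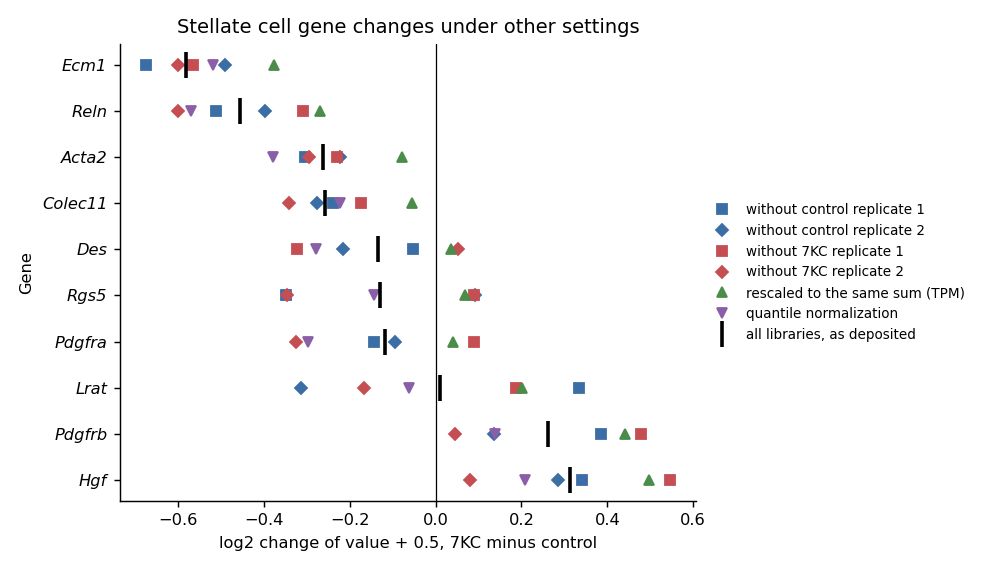
Log2 change (7KC minus control) of each stellate cell gene with all libraries on the deposited scale (black bar), without each library in turn (squares and diamonds), after rescaling to the same sum (triangles) and after quantile normalization (inverted triangles). Ecm1 stays between -0.67 and -0.38 over all settings, whereas Lrat runs from -0.31 to 0.33.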

How the data were processed

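Expression was measured by RNA sequencing of mouse liver in 2 control and 2 7KC libraries. The authors prepared stranded messenger RNA libraries, read them single-end and mapped them to mm10. The submitters' processing notes name TopHat2 2.1.1, Bowtie2 2.2.8, SAMtools 0.1.18 and Cuffdiff 2.2.1, whereas the study's methods name Cufflinks and other releases. The values were deposited by the authors as FPKM, 1 per symbol and library. The annotation and the strand and multi-read settings are not given in the sources used here, so genes that overlap a neighbour, as Lrat, Reln, Des and Pdgfra do on the opposite strand, could share its reads.

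Values were compared as log2(FPKM + 0.5), which understates changes of low genes. The fit took genes whose mean reached 0.5 FPKM. It used limma (version 3.58.1, R 4.3.3) with group as the only term, a trended prior variance and 2 residual and 3.27 prior degrees of freedom. Benjamini-Hochberg adjustment ran over all 12299 genes. The script was tested on simulated data. Depth was estimated with GENCODE M21 lengths less 200 bases, where 75.8% to 76.9% of values under 6 reads lay within 0.1 of a whole read. This is short of nearly all values, so no count test was run. Gene coordinates are those of GENCODE M21 on GRCm38, and promoter windows were from RefSeq. The genes, gene lists and tests were chosen with earlier results of these data known. All 10 stellate cell genes are named. From the other lists the 2 genes with the smallest p, partners of the stellate cell genes and defining markers are named, and exceptions are marked. The alternatives were other pseudocounts, filters, scalings and priors, a replicate block and leaving out each library.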

Additional observations from a re-analysis of the deposited data

How the results depend on the processing

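Rescaling to the same sum gave 398 genes higher and 7 lower over all tested genes, against 59 and 3 on the deposited scale, and turned Rgs5, Des and Pdgfra to 0.068, 0.037 and 0.041 and the stellate cell median to 0.039. It also gave 1 called higher in each of the activation, Hgf, actin, portal fibroblast and endothelial lists, 2 in the Kupffer and in the monocyte lists and 4 in the T and NK list, where the deposited scale gave 0. A pseudocount of 1 FPKM gave 111 genes higher, with 1 monocyte and 3 T and NK genes. Without a filter 0 were higher and 1 lower (2634 at an unadjusted p under 0.05), and without a trend in the prior 39 and 1. Quantile normalization turned Lrat to -0.063 and moved the difference of quiescent and activation genes to -0.10. Where the mean had to reach 5 FPKM, 4 of the 10 stellate cell genes were tested and that difference could not be formed.

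Same-numbered libraries deviated from their group means with a correlation of -0.14 across genes. With 2 libraries per group the crossed pairing must then give 0.14, so this value cannot decide whether the numbers pair the samples. The fit with the replicate number as a block called 0 genes higher and 0 lower (1851 at an unadjusted p under 0.05) and no stellate cell gene. The crossed pairing as a block, chosen after seeing the data, called 551 higher and 37 lower.

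Without single libraries, genes higher ranged from 2 to 404 and lower from 1 to 54, and the stellate cell median from -0.31 to -0.043. Lrat ranged from -0.31 to 0.33, Rgs5 from -0.35 to 0.091, Des from -0.32 to 0.052 and Pdgfra from -0.33 to 0.088. List counts ranged from 0 to 4 (activation higher), 0 to 1 (activation lower, Hgf higher, Rgs lower, portal fibroblast higher), 0 to 4 (monocyte higher) and 0 to 6 (T and NK higher). With 1 library in a group, that library is assumed to vary like the others. The causes were not tested. No stellate cell gene was called in any setting, and 2 libraries per group limit what could be.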
